A study of Homo sapiens with 4 samples.

Results

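The genes described here are the chaperones of the HSP70, HSP110, HSP90, small HSP and DNAJ families. They were taken as the rows of the deposited table whose Ensembl identifier maps to a protein-coding symbol beginning with HSPA, HSPB, HSP90, HSPH or DNAJ, without HSPBAP1, HSPBP1 and pseudogenes. The rule used only names and found 67 of the 28729 genes in the table. They comprise 12 HSP70, 3 HSP110, 3 HSP90, 6 small HSP, 4 DNAJA, 12 DNAJB and 27 DNAJC genes. HSPB11, which RefSeq lists as IFT25, is counted with the small HSPs by its symbol only.

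RNA-seq was performed on TU-177, an established human line from a laryngeal squamous cell carcinoma (LSCC), to compare cells with a negative control (NC, 2 libraries) and cells with knockdown of SKA3 (SKA3-KD, 2 libraries). SKA3 is a subunit of the SKA complex, which holds kinetochores to spindle microtubules. According to the sample labels both groups received a lentivirus, carrying either the control or an shRNA against SKA3, and were selected with puromycin, so the NC cells share the virus and the selection. The study's methods also describe an sgRNA and Cas9 route to stable SKA3 knockdown in TU-177 and do not say which cells were sequenced. No further treatment and no heat shock are named, and whether the libraries of a group came from separate transductions is not stated, so the p-values measure the spread between these libraries, which may be technical.

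The deposited values carry no read totals. The library sizes inferred from the steps between low FPKM values lay between 9015054 and 11966129 reads, and read numbers given below for single genes were inferred in the same way. SKA3 itself was at an FPKM of 9.40 and 9.64 in NC against 3.77 and 4.12 in SKA3-KD (log2 fold change -1.09 ± 0.07 SE, limma adjusted p = 0.00806). FPKM is the number of fragments per kilobase of gene, scaled to how many fragments were mapped in that library. It adjusts for gene length and library size only, and no further scaling was applied in the main test. Of 8 markers of squamous epithelium, SFN (133.4 to 155.4 FPKM) and KRT17 (29.4 to 49.1 FPKM) were abundant and EPCAM was at 2.73 to 2.95 FPKM. The keratins KRT5 and KRT14, which mark basal squamous cells, and the keratin KRT6A were at or close to 0 in all 4 libraries. CDH1 and TP63 stayed below 1 FPKM, so the squamous label was not borne out by these genes or keratins. The summed squamous markers were at 193.2 and 208.4 FPKM in NC against 166.7 and 189.2 in SKA3-KD. The fibroblast list, of which 5 of 6 genes were found, summed to 15.3 and 15.6 FPKM in NC against 8.86 and 9.50 in SKA3-KD, mostly through DCN, with COL1A2 at or close to 0. Leukocyte and endothelial markers summed to at most 1.01 FPKM. The part of these markers in the chaperone results was not tested.

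Chaperones of these families hold unfolded proteins and help them fold. HSP70 proteins bind and release short stretches of a client in a cycle driven by ATP, in which DNAJ proteins (also called HSP40) deliver the client and start ATP hydrolysis, while HSP110 proteins and other nucleotide exchange factors reset the cycle. HSP90 takes over many kinases and receptors late in their folding, and small HSPs hold clients without ATP. Each compartment has its own set, with HSPA8 and HSP90AB1 as constant members in the cytosol, HSPA5 and HSP90B1 in the endoplasmic reticulum (ER) and HSPA9 in mitochondria. The heat shock factor HSF1 is known to induce cytosolic members through heat shock elements, and ATF6 and XBP1 are known to induce ER members.

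The promoters of 6 members are shown because they hold the sequences by which these branches are usually recognised. Windows from 250 bases before to 50 bases after the annotated start were taken from RefSeq (GRCh38.p14), which matched 61 of the 67 members. They were searched on both strands for a heat shock element, GAANNTTCNNGAA, and for the ER stress element, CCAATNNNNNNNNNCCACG. In the sequences each match is in capitals and all are written 5′ to 3′ along the gene. HSPA8 held 2 heat shock elements and DNAJB6, DNAJA1 and HSPA6 held 1 each.
HSPA8 (chr11:123062087-123062386, minus strand): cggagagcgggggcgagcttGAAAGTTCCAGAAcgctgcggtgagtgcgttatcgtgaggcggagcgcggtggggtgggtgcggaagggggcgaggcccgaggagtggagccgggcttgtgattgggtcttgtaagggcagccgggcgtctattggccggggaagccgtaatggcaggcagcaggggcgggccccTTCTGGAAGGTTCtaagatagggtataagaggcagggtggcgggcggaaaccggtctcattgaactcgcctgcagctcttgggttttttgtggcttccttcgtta
DNAJB6 (chr7:157336754-157337053, plus strand): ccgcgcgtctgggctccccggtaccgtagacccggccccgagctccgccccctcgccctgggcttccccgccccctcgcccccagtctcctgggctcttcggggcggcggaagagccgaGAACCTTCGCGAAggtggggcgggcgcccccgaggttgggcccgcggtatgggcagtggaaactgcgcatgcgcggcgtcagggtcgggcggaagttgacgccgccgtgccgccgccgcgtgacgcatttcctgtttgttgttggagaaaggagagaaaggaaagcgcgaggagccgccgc
DNAJA1 (chr9:33025023-33025322, plus strand): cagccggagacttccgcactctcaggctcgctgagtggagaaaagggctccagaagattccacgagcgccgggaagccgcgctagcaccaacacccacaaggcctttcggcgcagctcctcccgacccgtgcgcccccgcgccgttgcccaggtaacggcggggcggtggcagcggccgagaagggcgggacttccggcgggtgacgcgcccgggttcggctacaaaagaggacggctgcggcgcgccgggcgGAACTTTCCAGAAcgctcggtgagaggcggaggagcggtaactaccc
HSPA6 (chr1:161524290-161524589, plus strand): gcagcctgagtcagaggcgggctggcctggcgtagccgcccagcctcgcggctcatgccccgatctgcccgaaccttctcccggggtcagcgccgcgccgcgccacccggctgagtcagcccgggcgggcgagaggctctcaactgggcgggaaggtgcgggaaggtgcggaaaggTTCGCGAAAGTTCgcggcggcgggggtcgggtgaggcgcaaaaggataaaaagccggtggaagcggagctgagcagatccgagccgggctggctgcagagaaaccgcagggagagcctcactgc
HSPA5 held 1 ER stress element and HSP90B1 held 2.
HSPA5 (chr9:125241294-125241593, minus strand): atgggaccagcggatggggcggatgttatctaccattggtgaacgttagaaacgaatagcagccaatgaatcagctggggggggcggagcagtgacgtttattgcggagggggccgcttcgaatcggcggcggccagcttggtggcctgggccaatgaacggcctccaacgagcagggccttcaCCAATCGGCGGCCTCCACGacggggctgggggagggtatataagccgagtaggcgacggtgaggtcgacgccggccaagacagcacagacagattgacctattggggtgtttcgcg
HSP90B1 (chr12:103930160-103930459, plus strand): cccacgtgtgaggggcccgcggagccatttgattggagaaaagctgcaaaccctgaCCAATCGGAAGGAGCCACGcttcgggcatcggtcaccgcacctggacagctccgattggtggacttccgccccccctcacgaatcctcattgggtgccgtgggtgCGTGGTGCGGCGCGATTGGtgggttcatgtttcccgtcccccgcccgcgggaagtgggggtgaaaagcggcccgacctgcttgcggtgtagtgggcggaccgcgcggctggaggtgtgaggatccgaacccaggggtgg

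Over all 27305 RefSeq windows of this length, 133 or 0.49% held the heat shock element and 22 or 0.08% held the ER stress element, against 4 and 2 of the 61 member windows. No window of a member held both motifs. The search asks for 3 perfect units at 1 start site per gene. A window without a match, such as those of HSPA1A, HSPA1B, HSP90AA1 and DNAJB1, says only that these letters are not in that window.

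Both cytosolic HSP90 genes, the HSP70 genes HSPA8, HSPA1A, HSPA1B, HSPA2 and HSPA5 and the HSP40 gene DNAJB1 rose in SKA3-KD, while the small HSP gene HSPB8 and the ER J-protein genes DNAJB9 and DNAJC10 fell. Of 56 members with a mean FPKM of at least 1, 10 were higher in SKA3-KD past an adjusted p-value of 0.05 (HSP90AA1, HSP90AB1, HSPA1A, HSPA1B, HSPA2, HSPA8, HSPA5, HSPH1, DNAJB1 and DNAJB6) and 4 were lower (HSPB8, DNAJB9, DNAJC10 and DNAJC22). Over all 12645 genes tested, 6.16% were higher and 6.11% were lower. For the members these shares were 17.9% and 7.14%. The changes were moderate, with fold changes of mean FPKM from 0.644 in DNAJB9 to 1.63 in HSPA1B. The test was limma on log2(FPKM + 1) with Benjamini-Hochberg adjustment over all genes tested, and log2 fold changes below are on this scale, on which low genes appear to change less than they do, given ± the standard error (SE). An exact permutation test of 2 libraries against 2 cannot go below p = 0.333, so the calls lean on the variance that limma borrows from other genes.

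These calls depended on all 4 libraries. Leaving out NC 1, NC 2, SKA3-KD 1 or SKA3-KD 2 left no member past the threshold in limma, with 17, 13, 11 and 15 members higher and 6, 7, 8 and 7 lower of 56 at an unadjusted p below 0.05. In the same fits 13.0%, 14.2%, 11.2% and 10.8% of all genes tested were higher and 11.8%, 12.3%, 11.6% and 11.6% lower at that p, so the members lower were near the background. All 14 called members kept their direction each time. Without the filter on low FPKM no member passed either, with 18 higher and 11 lower at an unadjusted p below 0.05 among 67, against 9.21% and 8.81% of all genes. Limma voom on the reads recovered from the FPKM values called 15 members higher and 7 lower, among them all 14, against 12.6% and 13.0% of all genes tested. Without the mean-variance trend 7 of the 14 did not pass, namely HSPA1A, HSPA2, HSPA5, HSPH1, DNAJB6, DNAJB9 and DNAJC22.

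Most of the higher calls were in genes with a copy by name, between which reads can be split where the sequence is shared. This grouping used names and not sequence. Of the 50-base windows, 72.6% in HSPA1A but 2.6% in DNAJB1 and 1.5% in DNAJA1 also occur in other genes. In DNAJC14, which has no copy by name, 27.9% do. Of the 17 tested members that have a pseudogene named after them in GENCODE 29 or, for HSPA1A and HSPA1B, each other as a copy, 8 were higher and 0 lower by limma, and 11 were higher and 0 lower by voom, with a median log2 fold change of 0.28. Of the 39 without such a copy, HSPA2 and HSPH1 were higher and 4 were lower, or 5.13% and 10.3%, with a median of 0.02. Over all genes tested 6.16% were higher and 6.11% lower by limma, and 12.6% and 13.0% by voom. The members with a mean FPKM of at least 100 are HSP90AB1, HSP90AA1, HSPA5, HSPA8, HSPB1, HSP90B1 and HSPA9. All of them have such a copy, so this grouping overlaps with level. The part of the copies in the chaperone results was not tested.

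**Figure D1:**
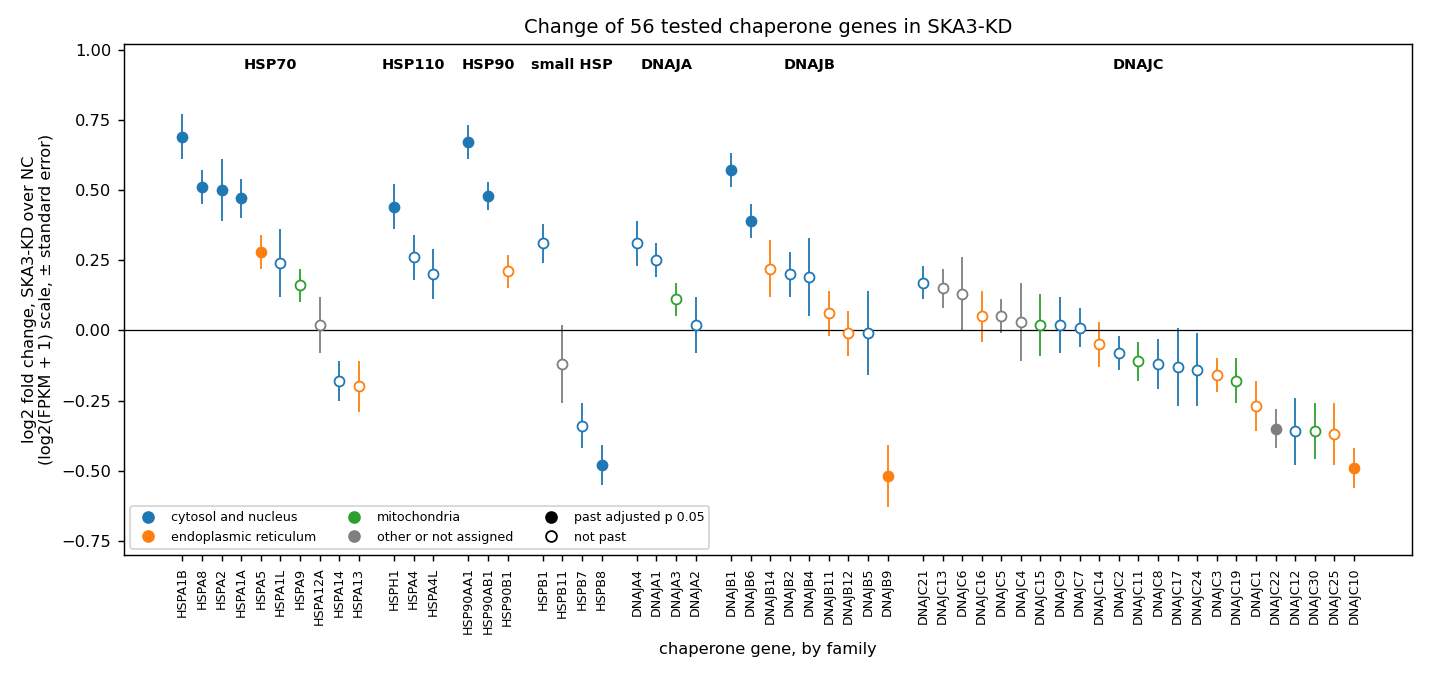
Log2 fold change of each of the 56 tested chaperone genes (SKA3-KD over NC, log2(FPKM + 1) scale), ordered by family on the x axis, with bars for the standard error from limma, colours for the compartment and filled points for an adjusted p below 0.05. HSP70, HSP110 and HSP90 genes lie mostly above 0, from -0.20 in HSPA13 to 0.69 in HSPA1B, and the DNAJC genes spread from -0.49 to 0.17.

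Taken by family, only members under the naming rule were counted. The median log2 fold change was 0.48 over the 3 HSP90 genes, 0.26 over the 10 HSP70 genes tested and 0.26 over the 3 HSP110 genes. It was 0.18 over 4 DNAJA and 0.19 over 9 DNAJB genes. It was -0.11 over 23 DNAJC genes and -0.23 over 4 small HSP genes, where it was -0.13 without SKA3-KD 2. These 4 are HSPB1 (0.31), HSPB7 (-0.34), HSPB8 (-0.48) and HSPB11 (-0.12), the last counted by its symbol only. The median over all genes tested was 0.01 and over all 56 members it was 0.04, or 0.09 without SKA3-KD 2. The DNAJB median was 0.05 without SKA3-KD 1 and 0.06 without NC 2, and the DNAJC median was -0.06 without NC 1. The members past the threshold on the higher side were 5 of 10 HSP70, 2 of 3 HSP90, 1 of 3 HSP110 and 2 of 9 DNAJB genes. On the lower side they were 2 of 23 DNAJC, 1 of 9 DNAJB and 1 of 4 small HSP genes. No DNAJA gene passed in either direction. For comparison, 6.16% of all genes tested were higher and 6.11% were lower. Both libraries of SKA3-KD lay above both NC libraries in 26 of the 56 members and below them in 15, against 32.3% and 29.2% of all genes tested.

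Taken by compartment, the 30 members of the cytosol and nucleus had a median of 0.20, with 9 higher and 1 lower, or 30.0% and 3.33%. Over all genes tested these shares were 6.16% and 6.11%. The 13 members of the ER had a median of -0.05, with 1 higher and 2 lower, or 7.69% and 15.4%. That median was -0.13 without SKA3-KD 1 and -0.08 without NC 1. The 6 mitochondrial members had a median of -0.05 and none passed the threshold in limma, at an adjusted p of 0.0857 or more, and none by voom. Their median was -0.01 without NC 1 or SKA3-KD 2 and -0.09 without NC 2 or SKA3-KD 1. Of 7 members placed elsewhere or in no compartment 1 was lower, or 14.3%.

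Members were also described by class and compartment together. In the cytosol and nucleus, the 14 HSP70, HSP110, HSP90 and small HSP genes had a median of 0.37 with 7 higher and 1 lower, and the 16 DNAJ genes had a median of 0.02 with 2 higher. In the ER, HSPA5, HSP90B1 and HSPA13 had a median of 0.21 while the 10 DNAJ genes had a median of -0.10 with 2 lower. The difference between these sets was not tested. Beside these counts, 6.16% of all genes tested were higher and 6.11% were lower.

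**Figure D2:**
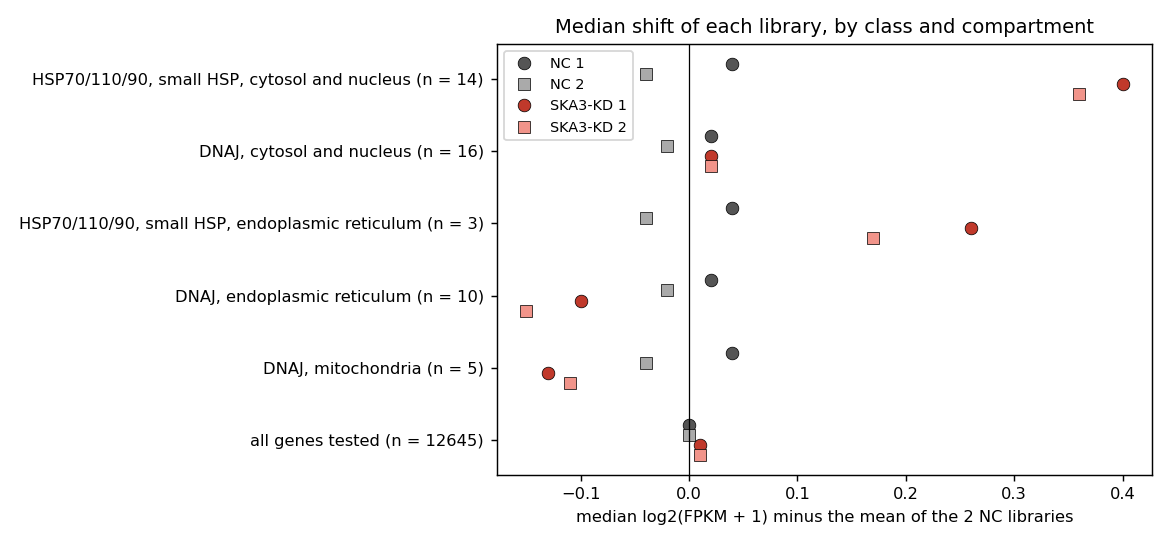
Median over the genes of each set of log2(FPKM + 1) minus the mean of both NC libraries (x axis), for each of the 4 libraries and 5 sets of chaperones, with all genes tested as the lowest set. In the cytosolic HSP70, HSP110, HSP90 and small HSP set SKA3-KD 1 lies at 0.40 and SKA3-KD 2 at 0.36, and in the ER DNAJ set they lie at -0.10 and -0.15, with the NC libraries within 0.04 of 0.

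By median, the change was largest in the most abundant genes, while calls were also made at lower levels. The 7 members with a mean FPKM of at least 100 all had a positive log2 fold change, with a median of 0.31 and 4 past the threshold. All 368 genes at that level had a median of -0.06, with 36 higher and 45 lower. The 24 members between 10 and 100 FPKM had a median of 0.06 and the 25 members between 1 and 10 FPKM had a median of 0.01. HSP90AB1 was the most abundant member with 23.2% of the summed FPKM of all members, followed by HSP90AA1 with 16.4%, HSPA5 with 11.5% and HSPA8 with 9.58%.

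Summed over all 67 members, the level was 3441 and 3356 FPKM in NC and 4516 and 4338 FPKM in SKA3-KD, so the SKA3-KD mean was 30.2% higher. The cytosolic and nuclear sum went from 2382 ± 59.6 to 3277 ± 87.4 FPKM (mean ± SD, n = 2 each) or 1.38-fold. The ER sum went from 755.1 ± 5.48 to 873.9 ± 30.9 FPKM (1.16-fold) and the mitochondrial sum from 195.7 ± 5.41 to 210.7 ± 5.27 FPKM (1.08-fold). The HSP90 sum was 1.42-fold higher and the DNAJC sum 0.936-fold. These sums are descriptions in which the most abundant genes weigh most, such as HSPA9 in the mitochondrial sum. In bulk RNA, fewer cells of a type and less RNA per cell cannot be told apart.

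**Figure D3:**
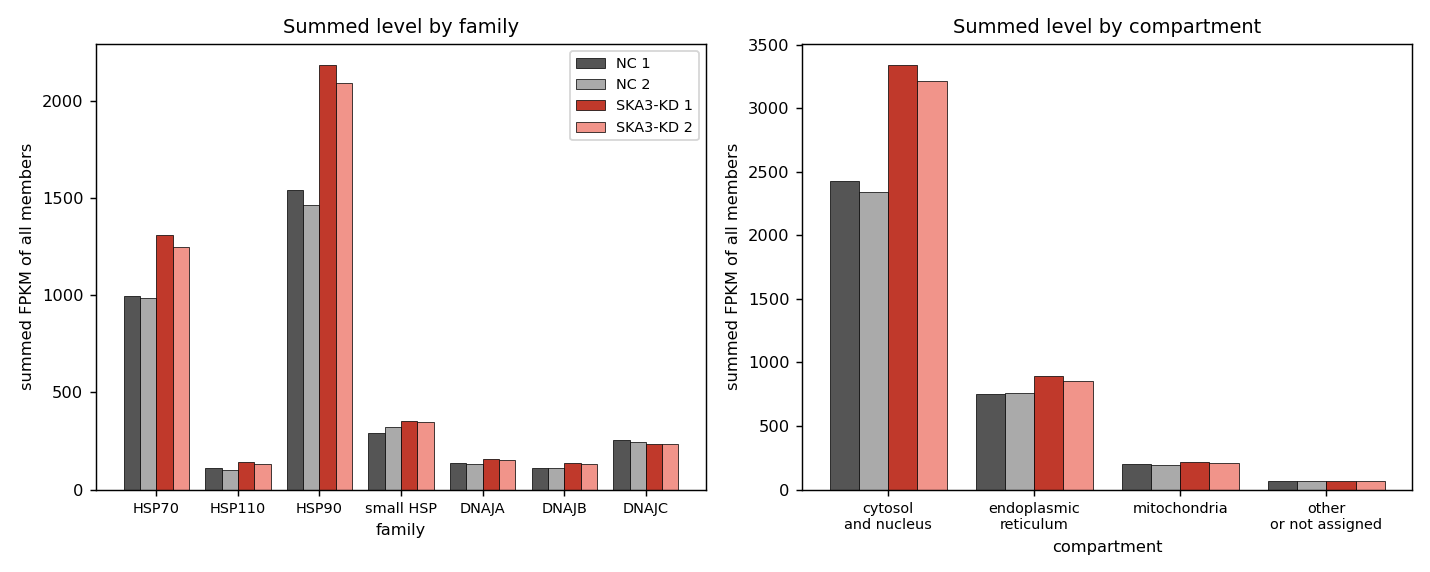
Summed FPKM of all members of each family (left) and compartment (right) in each of the 4 libraries, with bars from 0. The HSP90 bars stand at 1541 and 1464 in NC and at 2184 and 2094 in SKA3-KD, and the DNAJC bars at 257.1 and 242.5 against 234.6 and 233.1.

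Positions of genes are given in GRCh38 from GENCODE 29. Cytosolic HSP90 showed the change with the lowest adjusted p-value among all members. HSP90AA1 (ENSG00000080824, chr14:102080738-102139699, minus strand), the inducible form of cytosolic HSP90, was at 516.5 FPKM in NC 1 and 472.9 in NC 2, and at 802.2 and 776.7 in SKA3-KD 1 and 2. Both SKA3-KD libraries lay far above both controls, with a log2 fold change of 0.67 ± 0.06 (SE) at a limma adjusted p of 0.0113. HSP90AB1 (ENSG00000096384, chr6:44246166-44253888, plus strand), the constitutive form, was at 767.3 and 748.5 FPKM in NC and at 1084 and 1037 in SKA3-KD. The groups did not overlap, with a log2 fold change of 0.48 ± 0.05 (SE) at a limma adjusted p of 0.0142. The ratio of HSP90AA1 to HSP90AB1 was 0.673 and 0.632 in NC and 0.740 and 0.749 in SKA3-KD, so the inducible form gained on the constitutive form in both libraries. HSP90B1 (GRP94), the ER form, was at 257.0 and 242.4 FPKM against 298.5 and 280.3. These values did not overlap, but the log2 fold change of 0.21 did not pass the threshold (limma adjusted p = 0.0918). It passed in 4 of 11 alternative settings on all libraries, and was at a limma adjusted p of 0.247 without the filter. Among those it passed were a fit with a block for the replicate number (adjusted p = 0.0316) and voom (adjusted p = 0.0222). The labels do not say that the replicate numbers pair the libraries. Of the 50-base windows of their longest transcripts, 17.5% in HSP90AA1, 18.8% in HSP90AB1 and 7.0% in HSP90B1 also occur in other genes, largely pseudogenes.

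Among the cytosolic HSP70 genes, the constitutive HSPA8 (HSC70, ENSG00000109971, chr11:123057489-123063230, minus strand) was at 317.6 and 301.0 FPKM in NC and at 452.1 and 429.3 in SKA3-KD. All of its SKA3-KD values exceeded the NC values, with a log2 fold change of 0.51 ± 0.06 (SE) at a limma adjusted p of 0.0150. HSPA1A and HSPA1B are the major stress-inducible HSP70 genes and lie side by side on the plus strand of chromosome 6, at 31815464-31817946 and 31827735-31830255. HSPA1A was at 46.7 and 42.4 FPKM in NC and at 61.3 and 62.8 in SKA3-KD, and HSPA1B was at 53.0 and 47.5 against 85.7 and 78.1. Both genes were higher in each SKA3-KD library, with log2 fold changes of 0.47 (adjusted p = 0.0223) and 0.69 (limma adjusted p = 0.0152). Their transcripts share 72.6% of the 50-base windows of HSPA1A, so the division of reads between them is uncertain. Added up as 1 gene they were at 99.7 and 89.9 FPKM in NC and at 147.0 and 141.0 in SKA3-KD, a log2 fold change of 0.60 ± 0.07 (SE) at a limma adjusted p of 0.0152. HSPA1L, their neighbour on the minus strand at 31809619-31815065, was at 1.86 to 2.68 FPKM and had a log2 fold change of 0.24 that did not pass (limma adjusted p = 0.229).

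HSPA2 (ENSG00000126803, chr14:64535905-64546173, plus strand), a form best known from the testis, was at 5.35 and 6.48 FPKM in NC and at 9.13 and 8.33 in SKA3-KD. The groups were apart, with a log2 fold change of 0.50 ± 0.11 (SE) at a limma adjusted p of 0.0459, but this call was lost under median-of-ratios scaling and under the replicate block (adjusted p = 0.0665). HSPA6, known to be made almost only under strong stress, stayed between 0.284 and 0.557 FPKM on 9 to 15 reads per library, with overlapping groups, and was not tested. HSPA14, of the ribosome-associated branch, had a log2 fold change of -0.18 that did not pass (limma adjusted p = 0.154).

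The 3 HSP110 members under the naming rule, nucleotide exchange factors of HSP70, each had SKA3-KD values above NC. HSPH1 (ENSG00000120694, chr13:31134974-31162388, minus strand) was at 49.7 and 43.2 FPKM in NC and at 63.7 and 62.5 in SKA3-KD. It rose, with a log2 fold change of 0.44 ± 0.08 (SE) at a limma adjusted p of 0.0357. HSPA4 was at 56.4 and 53.4 FPKM against 69.9 and 62.3, with a log2 fold change of 0.26 that missed the threshold (limma adjusted p = 0.0915). It passed in 5 of 11 alternative settings, among them the replicate block (adjusted p = 0.0406) and voom (adjusted p = 0.0131). HSPA4L had a log2 fold change of 0.20 (limma adjusted p = 0.191).

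**Figure D4:**
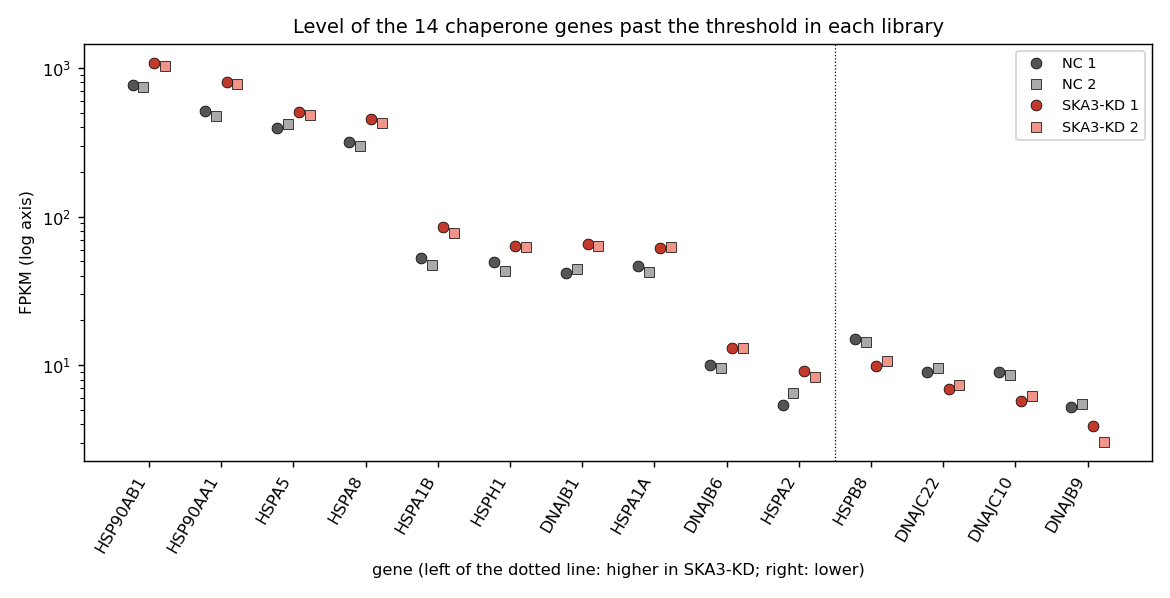
FPKM on a log axis of the 14 chaperone genes past the threshold, with 1 point for each of the 4 libraries. In each of the 10 genes left of the dotted line both SKA3-KD points lie above both NC points, and in HSPB8, DNAJC22, DNAJC10 and DNAJB9 both lie below.

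The cytosolic DNAJ partners of HSP70 were divided. DNAJB1 (ENSG00000132002, chr19:14514770-14529770, minus strand), the main stress-inducible HSP40, was at 42.0 and 44.1 FPKM in NC and at 65.6 and 63.5 in SKA3-KD. The groups did not overlap, with a log2 fold change of 0.57 ± 0.06 (SE) at a limma adjusted p of 0.0125. DNAJB6 (ENSG00000105993, chr7:157335381-157417439, plus strand), which holds back aggregation of polyglutamine proteins, was at 9.97 and 9.63 FPKM against 13.1 in both SKA3-KD libraries (log2 fold change 0.39 ± 0.06 SE, limma adjusted p = 0.0265). It has 8 pseudogenes in GENCODE 29, of which 4 are in the table at up to 5.03 FPKM, and 6.3% of its 50-base windows occur in other genes. DNAJA1, an abundant farnesylated partner of HSPA8 and the holder of a heat shock element at its start, was at 89.1 and 86.4 FPKM against 107.3 and 101.6. Its log2 fold change of 0.25 just missed the threshold (limma adjusted p = 0.0547). DNAJA1 passed in 7 of 11 alternative settings, among them the replicate block (adjusted p = 0.0335).

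None of the other cytosolic J-protein genes passed the threshold in limma. DNAJA4, named here after its values were seen, was at 5.78 and 6.03 FPKM against 7.90 and 7.22, with a log2 fold change of 0.31 (limma adjusted p = 0.0636) that passed by voom (adjusted p = 0.0124). DNAJC12, also named after its values were seen, was at 15.4 and 14 FPKM against 12.6 and 9.97, with a log2 fold change of -0.36 (limma adjusted p = 0.120) that passed by voom (adjusted p = 0.0150). DNAJA2, a close relative of DNAJA1, was at 20.1 and 16.8 FPKM against 18.6 and 18.8, with overlapping groups and a log2 fold change of 0.02 (limma adjusted p = 0.907). DNAJB2 (0.20), DNAJB4 (0.19) and DNAJB5 (-0.01) had log2 fold changes that did not pass, at adjusted p-values of 0.190, 0.411 and 0.956 in limma. The 8 cytosolic and nuclear DNAJC genes tested ranged from -0.36 to 0.17, and none passed.

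In the ER 1 of 3 HSP70 and HSP90 genes was higher and 2 of 10 J-protein genes were lower. Of the 13 ER members tested 7.69% were higher and 15.4% lower, against 6.16% and 6.11% of all genes tested. HSPA5 (BiP, ENSG00000044574, chr9:125234853-125241330, minus strand), the ER HSP70, was at 393.1 and 420.2 FPKM in NC and at 507.4 and 483.3 in SKA3-KD. It rose, with a log2 fold change of 0.28 ± 0.06 (SE) at a limma adjusted p of 0.0470, a call that was lost under median-of-ratios scaling. DNAJB9 (ERdj4, ENSG00000128590, chr7:108569568-108574850, plus strand), a J-protein that brings BiP to the stress sensor IRE1, was at 5.24 and 5.51 FPKM in NC and at 3.88 and 3.05 in SKA3-KD on 102 to 178 reads. Both SKA3-KD values lay below NC, with a log2 fold change of -0.52 ± 0.11 (SE) at a limma adjusted p of 0.0493, and the call was lost under quantile normalization and the replicate block (adjusted p = 0.0627). DNAJC10 (ERdj5, ENSG00000077232, chr2:182716041-182794464, plus strand), a J-protein with reductase activity that serves ER-associated degradation, was at 9.0 and 8.57 FPKM in NC and at 5.74 and 6.17 in SKA3-KD. The groups did not overlap, with a log2 fold change of -0.49 ± 0.07 (SE) at a limma adjusted p of 0.0231.

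DNAJC3 (P58IPK), an ER J-protein known to restrain the kinase PERK, was at 18.2 and 17.3 FPKM in NC and at 15.9 and 15.6 in SKA3-KD, with a log2 fold change of -0.16 that did not pass (limma adjusted p = 0.159). DNAJB11 (ERdj3), which binds nascent clients with BiP, was at 18.3 and 16.8 FPKM against 19.3 and 17.5 (log2 fold change 0.06, limma adjusted p = 0.632). HSPA13, a microsomal HSP70, was at 17.8 and 15.1 FPKM against 13.9 and 14.4 (log2 fold change -0.20, limma adjusted p = 0.220). Of the 13 ER members tested, HSPA5 was therefore higher, DNAJB9 and DNAJC10 were lower and the other 10 did not pass the threshold.

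None of the mitochondrial members passed the threshold. HSPA9 (mortalin), the mitochondrial HSP70 of protein import, was at 144.4 and 138.1 FPKM in NC and at 160.7 and 154.8 in SKA3-KD. The SKA3-KD values were both above NC, but the log2 fold change of 0.16 did not pass (limma adjusted p = 0.133). DNAJA3 (TID1), its main J-protein, had a log2 fold change of 0.11 (limma adjusted p = 0.252). DNAJC19 and DNAJC15, J-proteins of the import motor, had log2 fold changes of -0.18 and 0.02 (limma adjusted p = 0.218 and 0.935). The mitochondrial member farthest from 0 was DNAJC30, named here after its values were seen, at 4.07 and 4.78 FPKM in NC and 3.36 and 3.07 in SKA3-KD. These groups did not overlap, and its log2 fold change of -0.36 did not pass in limma (adjusted p = 0.0857) or voom (adjusted p = 0.0640).

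Small HSPs split in direction. HSPB1 (HSP27), by far the most abundant of them, was at 232.1 and 259.3 FPKM in NC and at 303.8 and 303.0 in SKA3-KD. Its log2 fold change of 0.31 just missed the threshold (limma adjusted p = 0.0528). HSPB1 passed in 7 of 11 alternative settings, among them the replicate block (adjusted p = 0.0421) and voom (adjusted p = 0.00338). HSPB8 (HSP22, ENSG00000152137, chr12:119178642-119221131, plus strand), which works with the co-chaperone BAG3 in selective autophagy, was at 15 and 14.4 FPKM in NC and at 9.87 and 10.7 in SKA3-KD. Both SKA3-KD libraries were below both controls, and it fell, with a log2 fold change of -0.48 ± 0.07 (SE) at a limma adjusted p of 0.0224. HSPB7, a form best known from heart and named here after its values were seen, was at 30.2 and 34.0 FPKM against 25.2 and 24.8. Its log2 fold change of -0.34 just missed the threshold (limma adjusted p = 0.0506). It passed by voom (adjusted p = 0.0021) but not under the replicate block (adjusted p = 0.0511).

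The remaining called member was DNAJC22 (ENSG00000178401, chr12:49346917-49357546, plus strand), for which no compartment was assigned. It was at 9.04 and 9.63 FPKM in NC and at 6.89 and 7.36 in SKA3-KD, with no overlap and a log2 fold change of -0.35 ± 0.07 (SE) at a limma adjusted p of 0.0459. Of the 11 members that were not tested, the highest had a mean of 0.587 FPKM, and 3 had at most 3 reads in each library. These 11 were HSPA6, HSPA12B, HSPB3, HSPB6, DNAJB7, DNAJB8, DNAJB13, DNAJC5B, DNAJC18, DNAJC27 and DNAJC28.

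Exons of some called members overlap genes on the other strand, and the use of strand in the counting is not stated in the sources used here. In DNAJB1 5.7% of the exon bases overlap TECR, in DNAJB9 6.5% overlap THAP5 and 3.5% PNPLA8, and in HSP90AA1 3.8% overlap WDR20. On the same strand, 36.5% of the exon bases of HSPA1B overlap AL671762.1, which has no row in the deposited values.

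Co-chaperones that serve cytosolic HSP70 and HSP90, which lie outside the naming rule, rose in part. Of 21 tested among 22, 5 were higher and 1 was lower, or 23.8% and 4.76% against 6.16% and 6.11% of all genes tested, with a median log2 fold change of 0.16. The HSP70 side included BAG3, a nucleotide exchange factor and the partner of HSPB8, at 16.2 and 19.1 FPKM in NC and 24.1 and 24.7 in SKA3-KD (log2 fold change 0.45, limma adjusted p = 0.0412). HSPBP1, another exchange factor, had a log2 fold change of 0.40 (limma adjusted p = 0.0303). BAG1, an exchange factor of the same family as BAG3, was at 34.1 and 32.3 FPKM in NC and at 25.5 and 26.2 in SKA3-KD (log2 fold change -0.35, limma adjusted p = 0.0314). BAG3 and BAG1 thus moved in opposite directions, as did BAG3 and HSPB8.

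On the HSP90 side, STIP1 (HOP), the adaptor between HSP70 and HSP90, was at 98.6 and 91.9 FPKM in NC and at 124.4 and 124.9 in SKA3-KD (log2 fold change 0.39, limma adjusted p = 0.0244). CDC37, the adaptor for kinases, and AHSA1, an activator of the HSP90 ATPase, each had a log2 fold change of 0.27 (limma adjusted p = 0.0393 and 0.0491). All of these SKA3-KD values lay above the NC values.

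None of the 12 ER folding partners tested passed in limma, with 1 higher by voom, and their median was 0.07. The closest was CALR, the lectin chaperone calreticulin, with a log2 fold change of 0.22 (adjusted p = 0.0523). The 4 mitochondrial partners had a median of 0.09 and none passed by limma or voom. HYOU1 of the ER list and TRAP1 of the mitochondrial list are relatives of HSP110 and HSP90 outside the naming rule. Each had a log2 fold change of 0.09 (limma adjusted p = 0.307 and 0.454). Among the heat shock factors, HSF1 was at 12.5 and 15 FPKM in NC and at 13.3 and 15.6 in SKA3-KD, with overlapping groups and a log2 fold change of 0.07 (limma adjusted p = 0.737). HSF2, at 3.0 and 3.04 FPKM against 4.11 and 3.86, had a log2 fold change of 0.31 that did not pass (limma adjusted p = 0.0777). HSF4 was at 2.97 and 3.05 FPKM against 2.29 and 2.31, with a log2 fold change of -0.28 (limma adjusted p = 0.120). HSBP1, a binding protein of HSF1, had a log2 fold change of -0.20 that did not pass in limma (adjusted p = 0.177) and passed by voom (adjusted p = 0.0339).

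**Figure D5:**
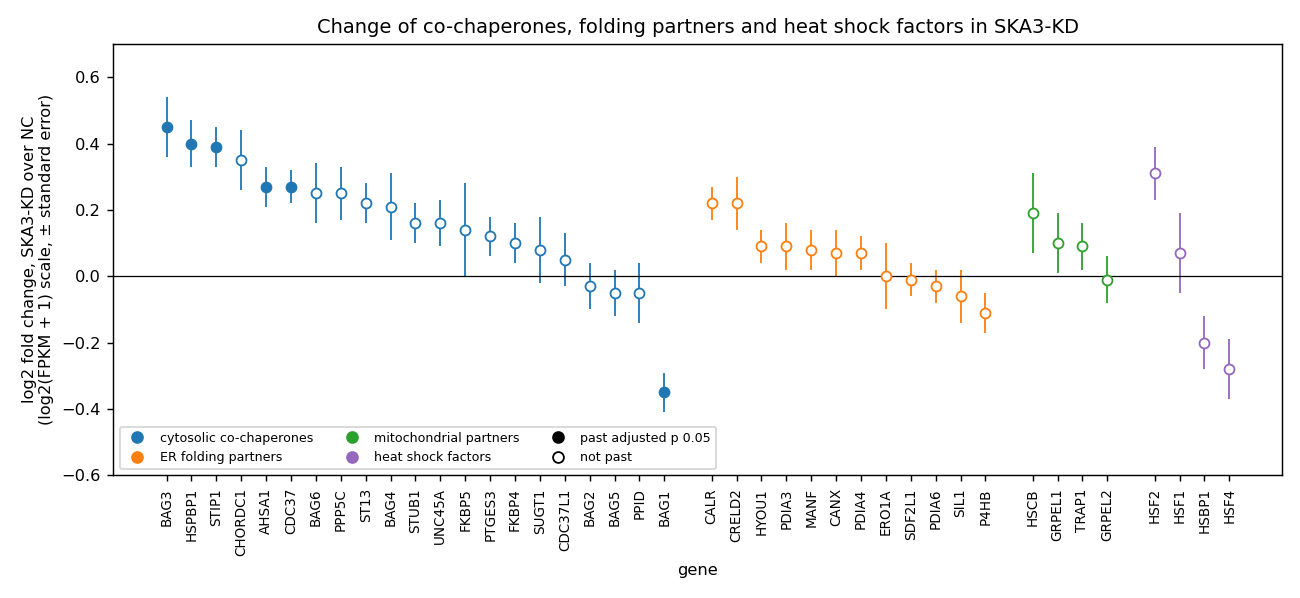
Log2 fold change (SKA3-KD over NC, log2(FPKM + 1) scale) of 41 tested genes outside the naming rule, namely 21 cytosolic co-chaperones, 12 ER folding partners, 4 mitochondrial partners and 4 heat shock factor genes, with bars for the standard error from limma and filled points for an adjusted p below 0.05. BAG3, HSPBP1, STIP1, AHSA1 and CDC37 lie above 0 past the threshold, and BAG1 lies below at -0.35.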

How the data were processed

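RNA of 4 TU-177 libraries (Trizol, Illumina HiSeq) was analysed from the FPKM values per gene that the authors deposited, which are normalized for gene length and library size. The submitters' processing notes name hg19, Bowtie2 2.2.8, HISAT2, StringTie 1.3.1 and Cuffdiff 2.1.1, without roles. Symbols and positions came from GENCODE 29 (GRCh38) by Ensembl identifier, so no hg19 coordinate is given. SKA3-KD was compared with NC by limma 3.58.1 in R 4.3.3 (lmFit, eBayes with a trend) on log2(FPKM + 1), for genes whose mean FPKM reached 1, with no additional scaling, with Benjamini-Hochberg adjustment over all genes tested and a threshold of 0.05. Groups came from the sample titles. The steps were tested on simulated data. Library sizes and whole reads, to within 0.02 of a read with a limit that widens at very high counts, were inferred from the FPKM steps for 99.3% of the genes tested. Reads followed directly from the GENCODE 29 exon length for 61.4% of them and for 29 of the 56 members. For the other 27 members they were the smallest whole numbers in the proportions of the 4 libraries, which is less certain. The reads of a library summed to between 100.7% and 102.4% of its inferred size. Limma voom was run on these reads as an alternative chosen after seeing the data. It called 1588 genes higher and 1644 lower. Members with a copy were set apart by gene name. Shared sequence was described separately, as 50-base windows shared between GENCODE 29 transcripts. The genes planned to be named are members past the threshold, members whose mean FPKM reached 100 and a fixed list of well-known members. From the lists of partners, genes past the threshold were to be named. Some members that meet none of these are named too, such as HSPA1L, HSPA4L, HSPA14 and HSPB11. From the partner lists CALR, HYOU1, TRAP1, HSF1, HSF2, HSF4 and HSBP1 are named, though they did not pass in limma. Members, lists and naming rule were chosen with earlier results of these data known. HSPB2, HSPB9, DNAJB3 and DNAJC5G are not analysed here. Python 3.11.15 with pandas 2.3.3 was used for the remaining steps.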

Additional observations from a re-analysis of the deposited data

How the results depend on the processing

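All 14 called members stayed past the threshold with a pseudocount of 0.1 and with robust eBayes. They also stayed with the GC and length correction, voom and a mean of at least 20 reads, all 3 chosen after seeing the data. Under quantile normalization 13 stayed, 12 under median-of-ratios scaling, 7 without the trend and 0 without the filter. With a mean FPKM of at least 5, 13 stayed, and DNAJB9, at a mean of 4.42 FPKM, was not tested. In the fit with the replicate block, 1002 genes were higher and 965 lower, 13 members were higher and 3 lower, and 12 of the 14 stayed. The labels do not say that the numbers pair the libraries, and the deviations of the replicate 1 libraries correlated at 0.097. Counts of all genes higher and lower were 48 and 81 without the filter, 312 and 381 without the trend, 1588 and 1644 by voom, 1353 and 1218 after the GC and length correction and 1295 and 1219 with at least 20 reads, and with 1 library left out they ranged from 0 to 46 and from 0 to 135. Members higher and lower were 0 and 0 without the filter and with any library left out, and 5 and 2 without the trend. There were 17 higher and 5 lower after the GC and length correction. They were 15 and 7 by voom and 14 and 7 with at least 20 reads. At an adjusted p below 0.1, 15 were higher and 7 lower. With members that have a copy by name left out (chosen after seeing the data), 2 were higher and 4 lower. When the fold change had to reach 1.5, 2 were higher and 0 lower. The shares of all genes at an adjusted p below 0.1 and at that fold change are not given here. SKA3 ranged from -1.14 to -1.04 with a library left out and did not pass without NC 1 (-1.11, limma adjusted p = 0.066) or NC 2 (-1.07, limma adjusted p = 0.060). The median of all members was 0.11 with a mean FPKM of at least 5, where the cytosolic median was 0.25 and the mitochondrial median turned to 0.02. After the GC and length correction the medians were 0.12 for DNAJB, -0.07 for DNAJC, 0.23 for the cytosol and, reversed, -0.01 for members placed elsewhere. The HSP70 median was 0.31 with a pseudocount of 0.1 and 0.32 under quantile normalization, where that of HSP90 was 0.59. With 1 library left out the median ranged from 0.03 to 0.09 over all members, 0.16 to 0.21 in DNAJA, 0.05 to 0.17 in DNAJB, -0.12 to -0.06 in DNAJC, 0.16 to 0.24 in the cytosol, -0.13 to -0.06 in the ER, -0.34 to -0.13 in small HSPs, -0.09 to -0.01 in mitochondria and 0.00 to 0.07 elsewhere. Uncalled genes near 0 changed sign, with DNAJA2 at -0.01 under quantile normalization, -0.00 by voom and -0.10 to 0.14 with a library left out, DNAJB5 at 0.01 under quantile normalization and -0.03 to 0.01, DNAJC15 at -0.01 by voom and -0.11 to 0.15, and DNAJB11 at -0.00 to 0.13. The cause of these shifts was not tested.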
